A study of Homo sapiens with 8 samples.

Results

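The interleukin-1 pathway was followed through 10 genes chosen by name: the ligands IL1A, IL1B and IL33, the receptor antagonist IL1RN, the receptors IL1R1, IL1RAP and IL1RL1, and the receptor-associated kinases IRAK1, IRAK2 and IRAK3. All 10 were found among the 27945 genes of the count table. The assay was fastGRO-seq, a nuclear run-on in which polymerases in isolated nuclei extend the transcripts they are making so that the reads report ongoing transcription. The cells were IMR90, a widely used strain of human lung fibroblasts with a finite lifespan, kept at 2% oxygen. The control group is labelled wild type and names no shRNA or RAS construct. The other 3 groups were senescent cells with an inducible fusion of the estrogen receptor and H-RAS with the G12V change (ER:RAS), which the study's methods switch on with 100 nM 4-hydroxytamoxifen (4-OHT) before harvest on day 6, and they carried shControl, shMETTL3 or shMETTL14. METTL3 and METTL14 form the methyltransferase complex that writes N6-methyladenosine on RNA. Each group had 2 libraries, 8 in all, and 1 shRNA was used per gene in populations selected after viral infection. Senescence, the ER:RAS genotype as labelled, 4-OHT and infection with an shRNA virus therefore go together in any comparison with control cells and cannot be told apart.

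IL-1α and IL-1β are inflammatory cytokines that bind the same receptor, IL1R1, which then pairs with the accessory chain IL1RAP. The receptor pair recruits the adaptor MYD88 and the IRAK kinases, and the signal runs through TRAF6 and the IKK complex to NF-kappaB, which switches on further cytokine genes, IL1A and IL1B among them. IL-33 uses IL1RL1 in place of IL1R1 with the same accessory chain, IL1RN occupies IL1R1 without signalling, and IRAK3 restrains the kinases. In senescent fibroblasts IL-1 is known as an upstream part of the secretory programme that includes IL6 and CXCL8.

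IL1A, IL1B and IL1RN lie in this order along chromosome 2, in hg19 at 113531492 to 113542975, 113587337 to 113594356 and 113875470 to 113891593. IL1A and IL1B are on the minus strand and IL1RN is on the plus strand. The other members lie on chromosome 2 (IL1R1, 102686836 to 102796334, and IL1RL1, 102927962 to 102968497), chromosome 3 (IL1RAP, 190231840 to 190374986, and IRAK2, 10206563 to 10285427), chromosome 9 (IL33, 6215786 to 6257983), chromosome 12 (IRAK3, 66582978 to 66648394) and chromosome X (IRAK1, 153275957 to 153285342). Reads were counted over these whole spans, exons and introns together. The 250 bases before a RefSeq start of IL1A, IL1B and IL1RN are printed 5′ to 3′ because these neighbours had very different levels of nascent RNA. The sequences come from RefSeq on GRCh38.p14, with the first start taken where RefSeq lists several. That start need not be the end of the span counted in hg19, and for IL1A the spacing to IL1B differs between the builds, so its window may lie inside the counted span. Capitals mark every match to the motifs searched.
IL1A, chr2:112784494-112784743, minus strand: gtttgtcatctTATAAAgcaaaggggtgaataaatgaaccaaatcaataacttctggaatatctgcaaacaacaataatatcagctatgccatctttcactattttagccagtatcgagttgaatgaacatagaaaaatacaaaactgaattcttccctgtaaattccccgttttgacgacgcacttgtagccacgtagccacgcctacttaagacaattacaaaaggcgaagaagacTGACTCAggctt
IL1B, chr2:112836780-112837029, minus strand: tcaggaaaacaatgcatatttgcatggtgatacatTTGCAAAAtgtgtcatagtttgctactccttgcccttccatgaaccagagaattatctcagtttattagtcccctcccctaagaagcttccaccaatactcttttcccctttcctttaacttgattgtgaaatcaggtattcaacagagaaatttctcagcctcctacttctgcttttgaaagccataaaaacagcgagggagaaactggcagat
IL1RN, chr2:113117721-113117970, plus strand: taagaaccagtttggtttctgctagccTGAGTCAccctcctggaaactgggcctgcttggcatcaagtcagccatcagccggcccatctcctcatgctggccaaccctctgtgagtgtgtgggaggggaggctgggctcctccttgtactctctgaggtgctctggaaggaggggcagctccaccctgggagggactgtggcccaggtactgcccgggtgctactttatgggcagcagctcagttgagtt
The motifs were the AP-1 motif TGANTCA, the C/EBP motif TTGCNNAA, TATAAA and the NF-kappaB consensus, searched on both strands. Counting back from these RefSeq starts, IL1A held an AP-1 match at position -12 and TATAAA at -239, IL1B held a C/EBP match at -215, and IL1RN held an AP-1 match at -223. Among the other members, IL1RL1 held an AP-1 match at -191 and IRAK1 an NF-kappaB match at -114. In these 3 windows the matches to different motifs did not overlap. Over all 35116 promoters of the same length, 6.57% held the AP-1 motif, 9.05% the C/EBP motif, 10.7% TATAAA and 9.96% the NF-kappaB consensus. A match describes letters in a window and is not evidence of a bound factor.

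Library totals ran from 14897360 to 20306299 counts. Ribosomal RNA rows took 86.2% to 92.5% of them, which left 1513930 to 2048475 counts per library on the other genes. All 7 fibroblast markers were present in every library, with summed counts of 25086 to 26299 in control, 8887 to 11062 in shControl, 10842 to 12256 in shMETTL3 and 7453 to 7956 in shMETTL14. The markers of other cells were near 0: the 5 leukocyte markers summed to 5 to 14 counts per library, with CD3E at 0 in all libraries, the 4 endothelial markers to 3 to 10, and the 4 epithelial markers to 0 to 3. The proliferation gene MKI67 had 224 and 201 counts in control, 25 and 53 in shControl cells, 1 and 0 in shMETTL3 cells and 1 and 3 in shMETTL14 cells. Of 6 senescence and cell cycle genes, 2 were higher and 3 lower in shControl than in control, where 13.3% of all genes tested were called higher and 13.3% lower. LMNB1, which encodes lamin B1, had 83 and 83 counts in control and 11 and 15 in shControl cells, and the topoisomerase gene TOP2A had 164 and 145 against 23 and 26, with at most 5 counts of either in any knockdown library. The cell cycle inhibitor gene CDKN2B had 36 and 38 counts in control, 141 and 141 in shControl cells, 328 and 298 in shMETTL3 cells and 145 and 196 in shMETTL14 cells, and CDKN1A, which encodes p21, had 459 and 426, 726 and 744, 762 and 642, and 1817 and 1498. The part of these shifts in the results was not tested. In such bulk libraries fewer cells of a kind and less RNA per cell cannot be told apart. METTL3 had 80 and 78 counts in control, 77 and 47 in shControl cells, 16 and 19 in shMETTL3 cells and 73 and 56 in shMETTL14 cells, and it fell by 2.04 on the log2 scale with shMETTL3 against shControl (SE 0.33, edgeR adjusted p = 1.8e-05). METTL14 had 60 and 55, 24 and 28, 41 and 48, and 18 and 14 counts in the same order, and its difference of -0.86 between shMETTL14 and shControl did not pass the threshold (SE 0.35, edgeR adjusted p = 0.076). A short hairpin RNA acts mainly on mature RNA, so nascent counts check the knockdown only in part.

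Differences were tested by quasi-likelihood in edgeR, with 1 model for all 8 libraries and 12844 genes, at an adjusted p below 0.05. Levels are given as normalized counts, which are counts scaled by TMM, with the SD over the 2 libraries of a group. Fold changes are on the log2 scale with their SE. Of the 10 members, 8 passed the filter on low counts. IL33 and IL1RN did not pass, and IL1RL1 passed only through its counts with shMETTL14. Against control, 5 of the 8 members tested were higher in senescent shControl cells and 0 were lower (0 at an unadjusted p below 0.05 and 0 by DESeq2), where 26.6% of all genes tested were called and 13.3% were called higher. The members that rose were IL1A, IL1B, IL1RL1, IRAK2 and IRAK3, which is 4 of 7 without IL1RL1. IL1A and IL1B, with at most 5 counts per control library, also passed the filter only through senescent libraries, so their calls above control are no support. With at least 10 counts in every library 5 members were left in the fit, and 2 of them, IRAK2 and IRAK3, were called higher. With shMETTL3 against shControl, 1 member was higher (IL1RAP) and 4 were lower (IL1A, IL1B, IL1R1 and IRAK1), where 23.4% of all genes were called, 12.2% higher and 11.2% lower. With shMETTL14 against shControl, 0 members were higher (1 at an unadjusted p below 0.05, IL1RL1, and 0 by DESeq2) and 4 were lower (IL1A, IL1B, IL1R1 and IRAK3), where 21.2% were called, 9.15% higher and 12% lower. Scaling by library size alone, under which the median of all genes was 0.58 for shMETTL3 and 0.35 for shMETTL14, gave 2 higher and 2 lower after shMETTL3 and 3 higher and 2 lower after shMETTL14.

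**Figure D1:**
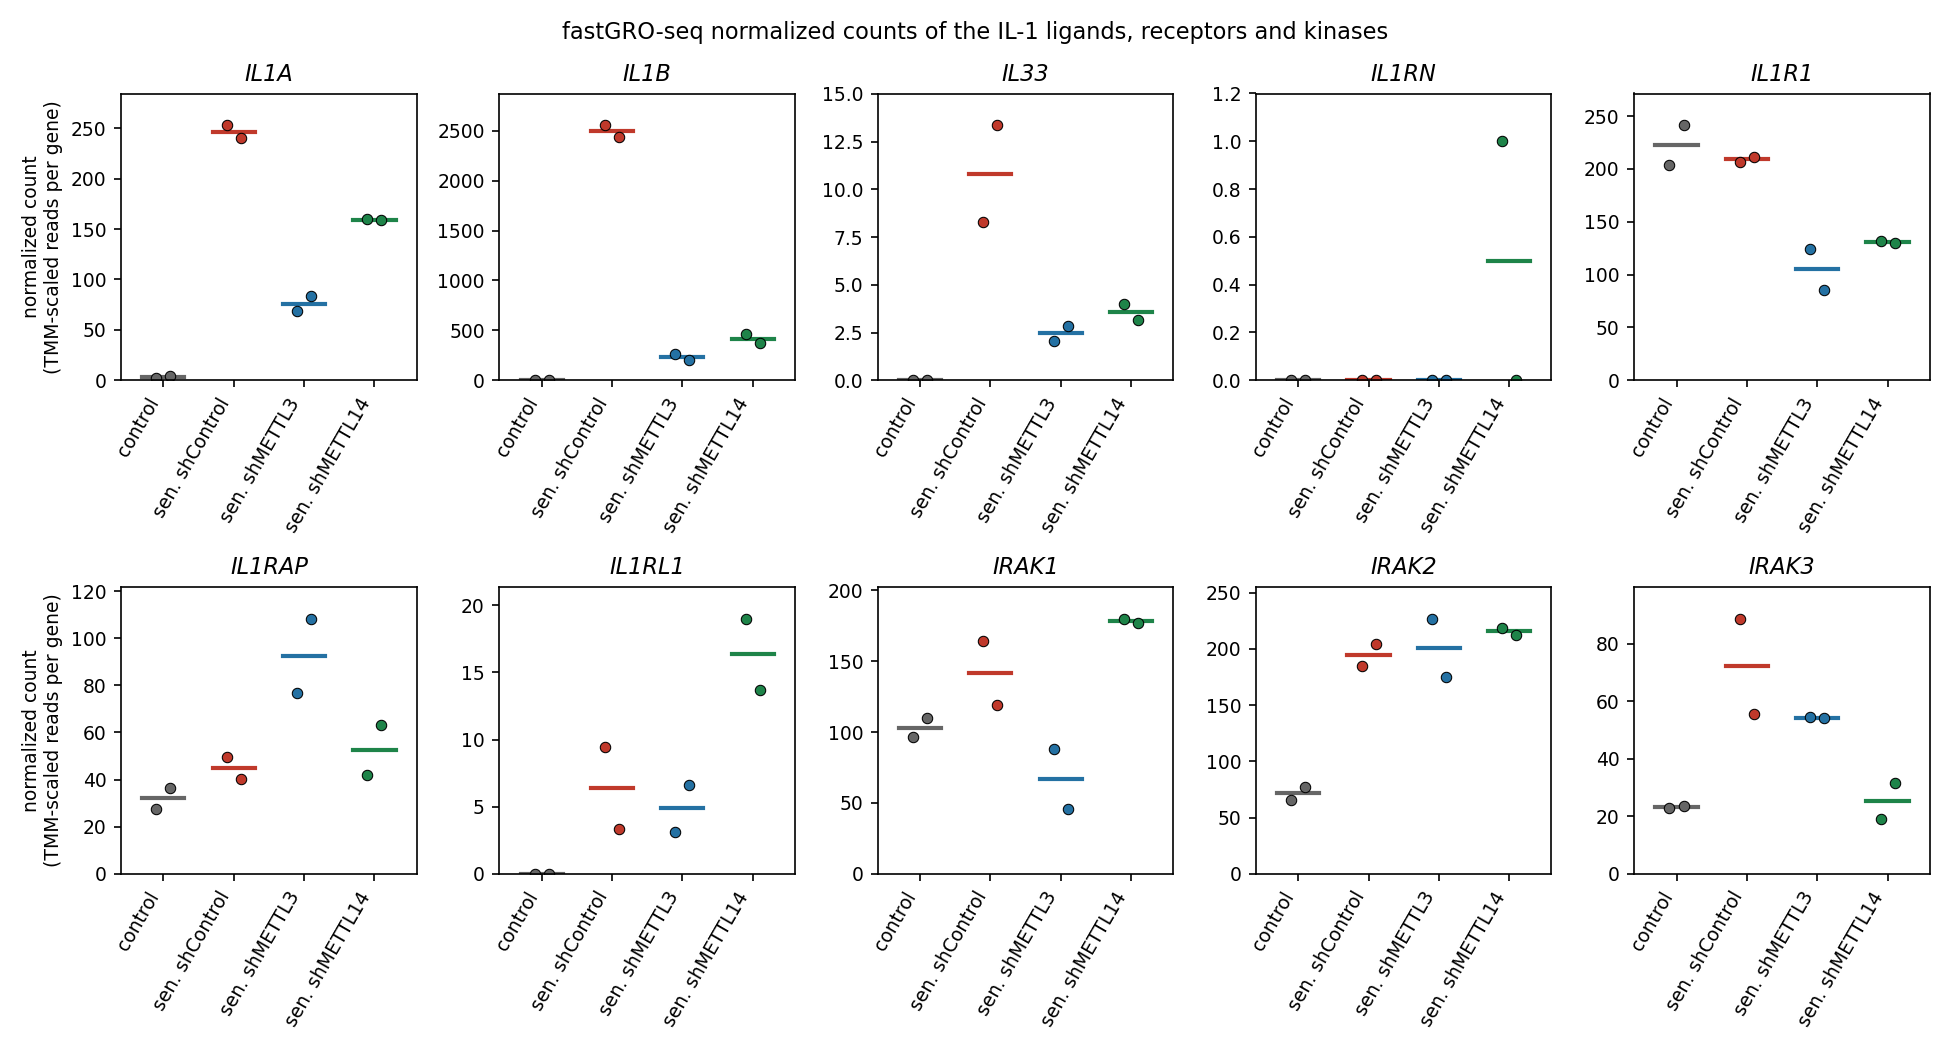
Normalized count (reads per gene after TMM scaling, linear axis from 0) of each of the 10 members in the 2 libraries of each group, points, with the group mean as a line. IL1A and IL1B sit near 0 in control and are highest in senescent shControl cells, IRAK2 stays raised in all 3 senescent groups, and the IRAK3 libraries with shMETTL14, at 19.0 and 31.6, lie on either side of those of control, at 23.0 and 23.5.

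IL1B, which encodes the secreted ligand IL-1β, went from almost silent to the most transcribed member. It had 2 and 3 counts in control, 2161 and 2189 in shControl cells, 261 and 212 in shMETTL3 cells and 459 and 356 in shMETTL14 cells. No group overlapped another. The normalized count was 2496 ± 83.8 (SD, n = 2) with shControl, and the ratio to control was 1136, with a 95% counting interval of 486 to 3500 that is wide because control holds 5 counts in all. This interval covers counting error only. On the log2 scale the rise was 10.07 (SE 0.62, edgeR adjusted p = 1.6e-20). This value and the other differences of IL1B from control are descriptions, because IL1B passed the filter only through senescent libraries. IL1B fell by 3.41 with shMETTL3 (SE 0.15, edgeR adjusted p = 1.9e-14) and by 2.58 with shMETTL14 (SE 0.15, edgeR adjusted p = 1.6e-12). The normalized counts left were 235 ± 47.0 and 417 ± 59.3 (SD, n = 2), which is 9.32% and 16.6% of the rise from control to shControl. Both knockdown groups stayed above control, by 6.66 (SE 0.62) and 7.49 (SE 0.62) on the log2 scale.

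IL1A encodes IL-1α, which acts at the cell surface and in the nucleus as well as after release. It had 2 and 5 counts in control, 214 and 216 in shControl cells, 67 and 88 in shMETTL3 cells and 160 and 151 in shMETTL14 cells. The 4 groups again did not overlap. The ratio of shControl to control was 80.2, with a counting interval of 38.6 to 201, and the log2 rise was 6.27 (SE 0.52, edgeR adjusted p = 2.8e-15). This rise is likewise a description, because IL1A passed the filter only through senescent libraries. IL1A fell by 1.69 with shMETTL3 (SE 0.18, edgeR adjusted p = 8.3e-08), which left 30.0% of the rise. With shMETTL14 it fell by 0.63 (SE 0.16, edgeR adjusted p = 0.0063), which left 64.2%. This smaller fall did not pass in DESeq2 (adjusted p = 0.084), with library size alone (-0.28, adjusted p = 0.32), without shControl replicate 1 (adjusted p = 0.074) or without shMETTL14 replicate 1 (adjusted p = 0.054).

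The balance between these ligands can be read within a library, where no scaling between libraries enters. IL1B had 10.1 counts for each count of IL1A in both shControl libraries. The ratio was 3.90 and 2.41 with shMETTL3, 2.87 and 2.36 with shMETTL14, and 1.0 and 0.6 in control on a handful of counts. The knockdown groups overlapped each other and lay below both shControl libraries. Per base of gene the ratio was 16.5 and 16.6 in shControl cells, 6.37 and 3.94 in shMETTL3 cells and 4.69 and 3.86 in shMETTL14 cells. With 2 libraries per group no permutation test of this ratio could pass the threshold.

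**Figure D2:**
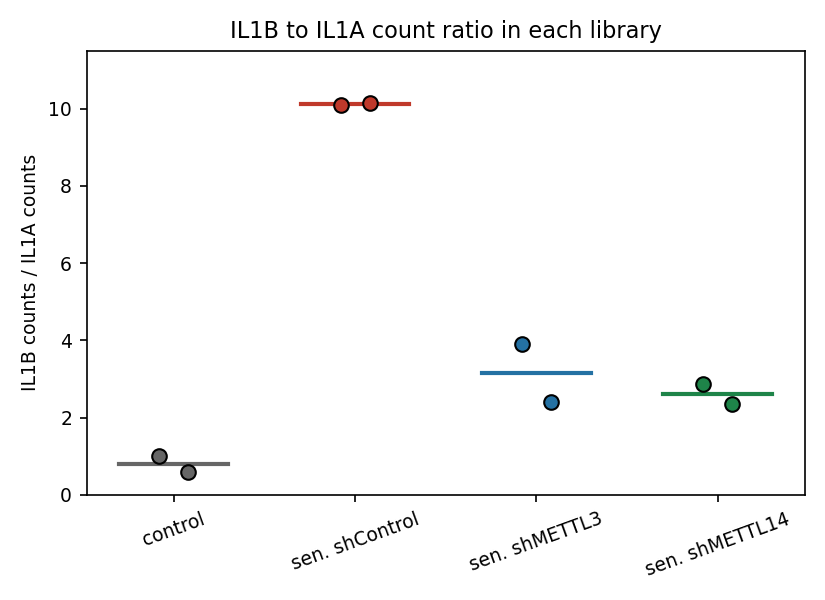
Counts of IL1B divided by counts of IL1A in each library (points, with the group mean as a line) for the 4 groups, on a linear axis from 0. Both shControl libraries stand at 10.1, and the 4 knockdown libraries lie between 2.36 and 3.90.

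IL33, a nuclear alarmin, was sparse. It had 0 and 0 counts in control, 7 and 12 in shControl cells, 2 and 3 in shMETTL3 cells and 4 and 3 in shMETTL14 cells. Its level was highest in shControl and at least 8.27-fold higher there than in control, taking 3 counts over the control group as the floor. It did not pass the filter and so was not tested with the rest. The ratio to shControl was 0.226 with shMETTL3, with a counting interval of 0.0661 to 0.627, and 0.330 with shMETTL14, with an interval of 0.117 to 0.819. In a fit with no filter the rise in senescence passed (edgeR adjusted p = 0.00026) and the knockdown differences did not (edgeR adjusted p = 0.11 and 0.28). IL1RN had 1 count in a single shMETTL14 library and 0 in the other 7, so nascent RNA of the antagonist was not detectable at this depth while its neighbour IL1B had 2161 and 2189 counts in the shControl libraries.

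Of the receptor genes, IL1R1, the signalling receptor for IL-1α and IL-1β, had 230 and 277 counts in control, 175 and 190 in shControl cells, 121 and 90 in shMETTL3 cells and 132 and 123 in shMETTL14 cells. Its normalized count was 222 ± 26.5 in control and 209 ± 3.23 with shControl (SD, n = 2), and these ranges overlapped. The difference was -0.089, with a 95% interval of -0.42 to 0.24. IL1R1 fell by 1.00 with shMETTL3 (SE 0.18, edgeR adjusted p = 0.00013) and by 0.68 with shMETTL14 (SE 0.17, edgeR adjusted p = 0.0054), and both knockdown groups lay below control as well, with differences of -1.09 (SE 0.17) and -0.77 (SE 0.17). Library size alone made the difference between senescent shControl and control a fall (-0.58, adjusted p = 0.012) and ended both knockdown calls (-0.40, adjusted p = 0.12 with shMETTL3, and -0.33, adjusted p = 0.24 with shMETTL14). The shMETTL14 call was also lost without shControl replicate 2 (adjusted p = 0.060).

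IL1RAP, the accessory chain shared by the IL-1 and IL-33 receptors, was the 1 member that rose after METTL3 knockdown. It had 31 and 42 counts in control, 42 and 36 in shControl cells, 75 and 114 in shMETTL3 cells and 42 and 60 in shMETTL14 cells. Both shMETTL3 libraries were higher than all other libraries. The normalized count was 44.9 ± 6.78 with shControl and 92.6 ± 22.1 with shMETTL3 (SD, n = 2), a rise of 1.05 (SE 0.26, edgeR adjusted p = 0.0036). This call was lost without shControl replicate 2 (adjusted p = 0.086) and without shMETTL3 replicate 2 (adjusted p = 0.062). Its differences between shControl and control (0.48, 95% interval -0.12 to 1.09) and between shMETTL14 and shControl (0.23, 95% interval -0.35 to 0.80) did not pass.

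IL1RL1, the IL-33 receptor also called ST2, had 0 and 0 counts in control, 8 and 3 in shControl cells, 3 and 7 in shMETTL3 cells and 19 and 13 in shMETTL14 cells. Levels rest on few counts, and shControl and shMETTL3 overlapped. Against control, taken at the floor of 3 counts, it was at least 4.79-fold higher with shControl (edgeR adjusted p = 0.0057) and at least 12.5-fold higher with shMETTL14. Since it entered the fit only through its shMETTL14 counts, calls that set shMETTL14 above another group are no support. The call with shControl was lost without shControl replicate 1 (adjusted p = 0.13), without control replicate 1 (adjusted p = 0.055) and without control replicate 2 (adjusted p = 0.053). Its shMETTL14 counts gave a ratio of 2.60 to shControl, with a counting interval of 1.28 to 5.72, and the log2 difference of 1.36 did not pass (SE 0.64, edgeR adjusted p = 0.12). It passed with library size alone (1.71, adjusted p = 0.033) and in a fit of only the groups compared (1.35, adjusted p = 0.046).

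Of the kinases, IRAK2, which sustains signalling from the receptor complex, had 74 and 89 counts in control, 156 and 184 in shControl cells, 221 and 184 in shMETTL3 cells and 219 and 202 in shMETTL14 cells. All 6 senescent libraries were above both control libraries. It rose by 1.44 in senescence (SE 0.18, edgeR adjusted p = 4.1e-07). Neither knockdown difference passed: it was 0.041 with shMETTL3 (95% interval -0.29 to 0.37) and 0.15 with shMETTL14 (95% interval -0.18 to 0.48). The share of its rise that was left was 105% with shMETTL3 and 117% with shMETTL14. With library size alone IRAK2 was called higher in both knockdown groups, by 0.65 (adjusted p = 0.0061) and 0.50 (adjusted p = 0.049).

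IRAK3, the inactive kinase also called IRAK-M that restrains the pathway, had 26 and 27 counts in control, 75 and 50 in shControl cells, 53 and 57 in shMETTL3 cells and 19 and 30 in shMETTL14 cells. It rose by 1.62 in senescence (SE 0.30, edgeR adjusted p = 0.00012). With shMETTL14 it fell by 1.51 (SE 0.31, edgeR adjusted p = 0.00055) to a normalized count of 25.3 ± 8.91, which overlapped the 23.3 ± 0.345 of control (SD, n = 2) and left 4.14% of the rise, at -8.75% and 17.0% in the separate libraries. With shMETTL3 the difference of -0.41 did not pass (95% interval -0.95 to 0.14).

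IRAK1, the kinase recruited first with IRAK4, had 109 and 126 counts in control, 139 and 107 in shControl cells, 86 and 48 in shMETTL3 cells and 180 and 168 in shMETTL14 cells. Its senescence difference of 0.45 did not pass (SE 0.21, edgeR adjusted p = 0.12), though it did in a fit of only the groups compared (0.49, adjusted p = 0.011). It fell by 1.09 with shMETTL3 (SE 0.23, edgeR adjusted p = 0.00089), a call that library size alone ended (-0.48, adjusted p = 0.091). Its difference with shMETTL14 was 0.34 (95% interval -0.084 to 0.75) and did not pass, although library size alone made it a rise (0.69, adjusted p = 0.010).

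**Figure D3:**
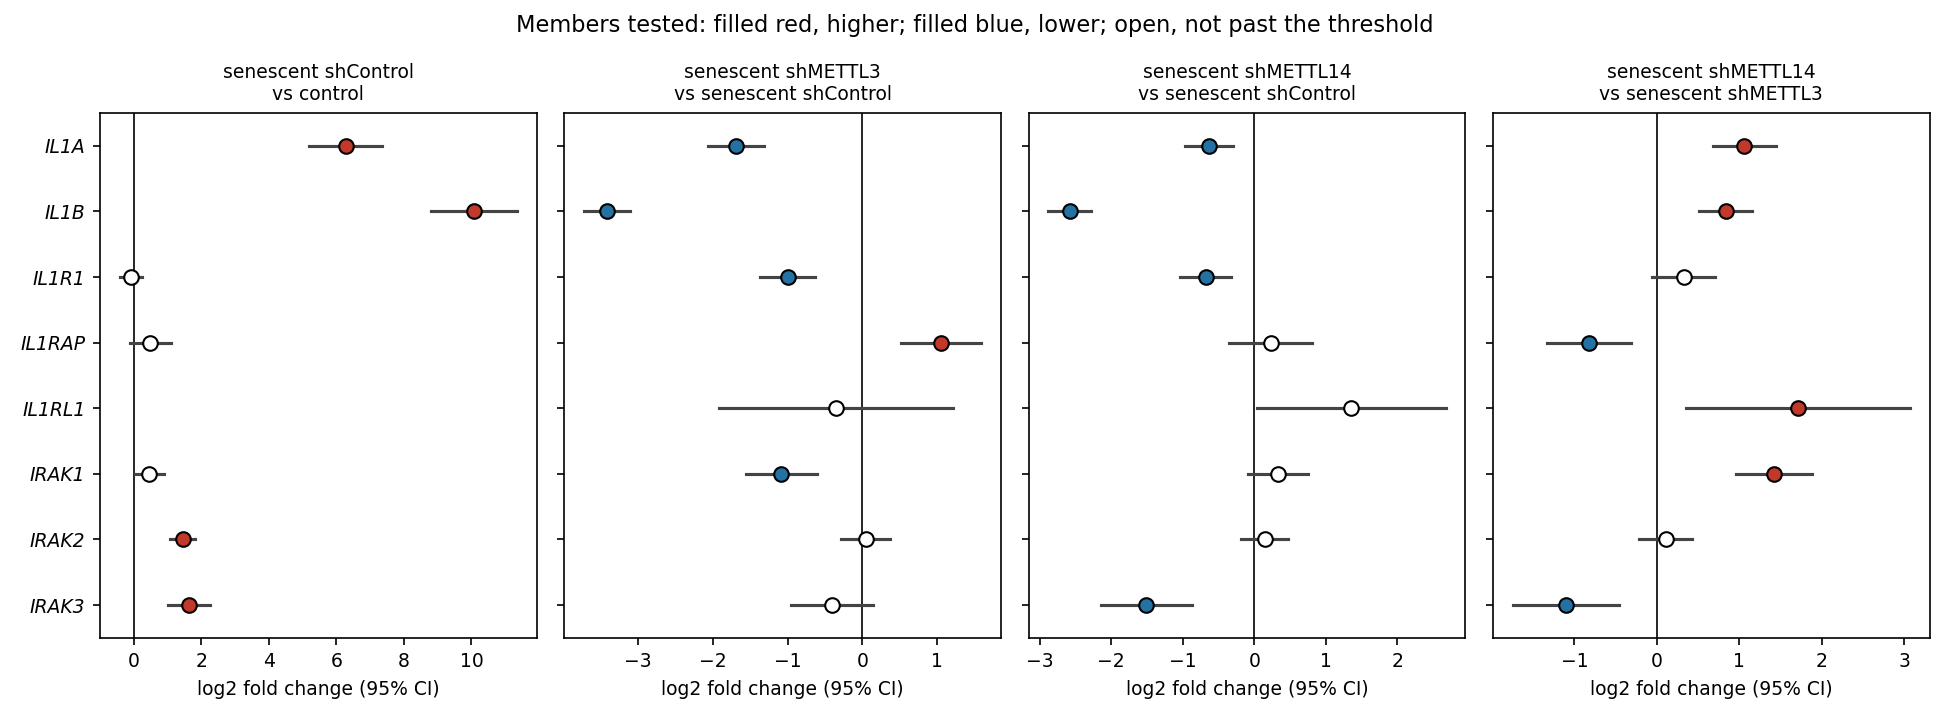
Log2 fold change of the 8 members tested, with 95% intervals as lines, in 4 comparisons, each with its own horizontal axis. IL1B has the largest change in the first 3 comparisons, IL1RL1 has no value against control because control holds 0 counts, and IRAK1 and IRAK3 lie on opposite sides of 0 in the comparison of shMETTL14 with shMETTL3.

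Levels of different genes were compared per kilobase of gene. With shControl, IL1B stood at 356 ± 11.9 normalized counts per kilobase, followed by IL1A at 21.5 ± 0.776, IRAK1 at 15.1 ± 3.41, IRAK2 at 2.47 ± 0.183, IL1R1 at 1.91 ± 0.0295 and IRAK3 at 1.10 ± 0.357 (SD, n = 2). Below them IL1RAP, IL33 and IL1RL1, at 0.313 ± 0.0474, 0.256 ± 0.0851 and 0.158 ± 0.107 per kilobase, did not differ from the next in order beyond their spread. In control the order was led by IRAK1 at 10.99 ± 0.994 and IL1R1 at 2.03 ± 0.242 per kilobase, and IL1B and IL1A stood at 0.312 ± 0.0848 and 0.267 ± 0.159, which overlapped.

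The knockdown groups were also compared directly, since passing in one and not in the other does not show a difference. In shMETTL14 against shMETTL3, 4 members were higher (3 without IL1RL1) and 2 lower, where 35.2% of all genes were called, 16.5% higher and 18.7% lower. IRAK1 was higher by 1.42 (SE 0.22, edgeR adjusted p = 1.3e-05), IL1A by 1.06 (SE 0.18, edgeR adjusted p = 5.3e-05) and IL1B by 0.83 (SE 0.16, edgeR adjusted p = 0.00016). The value for IL1RL1 was 1.71 (SE 0.66, edgeR adjusted p = 0.033), which is given as a description because IL1RL1 was in the fit only through shMETTL14, and DESeq2 gave it no adjusted p. The difference was -1.10 for IRAK3 (SE 0.31, edgeR adjusted p = 0.0062) and -0.82 for IL1RAP (SE 0.25, edgeR adjusted p = 0.010). Without shMETTL14 replicate 1 the 6 calls became 3, those of IL1A, IL1B and IRAK1. The call of IL1RAP was also lost in DESeq2 (adjusted p = 0.092) and without shMETTL3 replicate 2 (adjusted p = 0.15), and that of IL1RL1 with library size alone (adjusted p = 0.074), without shMETTL3 replicate 1 (adjusted p = 0.13) and without shMETTL14 replicate 2 (adjusted p = 0.094). Both knockdown comparisons with shControl share the same 2 shControl libraries. Against control, shMETTL3 cells had 6 members higher and 2 lower and shMETTL14 cells 6 higher and 1 lower, where 40.2% of all genes were called in each, 20.1% higher and 20.1% lower with shMETTL3 and 19.7% higher and 20.5% lower with shMETTL14. IL1A, IL1B and IL1RL1 are among the 6 in each and passed the filter only through senescent libraries, so those calls are no support. With at least 10 counts in every library, which drops them, 3 were higher and 2 lower with shMETTL3, and 2 higher and 1 lower with shMETTL14. IRAK1 was lower than control with shMETTL3 (-0.63, SE 0.23, edgeR adjusted p = 0.029) and higher with shMETTL14 (0.79, SE 0.20, edgeR adjusted p = 0.0029), but the first of these was lost in 6 alternatives, DESeq2 among them (adjusted p = 0.17). The call of IL1RAP above control with shMETTL14 (0.71, SE 0.28, edgeR adjusted p = 0.046) was likewise lost in 6 alternatives, DESeq2 among them (adjusted p = 0.20). IL1RL1 was at least 3.74-fold higher with shMETTL3 than in control, and that call was lost without either control library (adjusted p = 0.058 and 0.059) or without shMETTL3 replicate 2 (adjusted p = 0.063).

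The wider pathway was followed with lists of genes, described by counts of calls. Of 21 genes known to be induced by IL-1 in fibroblasts, all were tested, and 18 rose and 1 fell in senescent shControl cells, where 13.3% of all genes were called higher and 13.3% lower, with a median of 4.36 on the log2 scale against -0.034 for all genes tested. The 1 that fell was the monocyte chemokine CCL2 (-0.87, SE 0.31), and leaving out any of the 4 libraries ended that call. The median was the same with CSF2 and CSF3, which have 0 counts in control, set at the floor. CSF2, CSF3, CXCL2, CXCL3, CCL20 and MMP3, at 0 to 4 counts per control library, were among the genes that passed the filter only through senescent libraries. Their calls above control are no support. The list was chosen with earlier results of these data known, so its counts of calls are a description and no test. In shMETTL3 cells 0 were higher than in shControl cells (0 at an unadjusted p below 0.05 and 0 by DESeq2) and 15 were lower, where the shares of all genes were 12.2% and 11.2%, with a median of -1.65 against -0.034 for all genes. In shMETTL14 cells 7 were higher and 8 lower, where the shares were 9.15% and 12%, with a median of 0.14 against -6.4e-05 for all genes. Without shMETTL14 replicate 1 the 7 became 4, and with library size alone they became 11 with 7 lower, while shMETTL3 then gave 1 higher and 12 lower. In shMETTL14 against shMETTL3, 16 of the 21 were higher and 1 was lower, where the shares were 16.5% and 18.7%.

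MMP3, a matrix metalloprotease, had 2 and 3 counts in control and 5581 and 5385 with shControl, and it fell by 5.18 with shMETTL3 (SE 0.15) and by 3.47 with shMETTL14 (SE 0.14). The collagenase gene MMP1 rose by 7.30 in senescence (SE 0.17) and fell by 1.06 and 0.81 with shMETTL3 and shMETTL14 (SE 0.14 each). CXCL3, a chemokine close to CXCL1, had 0 and 3 counts in control, 284 and 254 in shControl cells, 21 and 8 in shMETTL3 cells and 48 and 41 in shMETTL14 cells. The neutrophil chemokine CXCL1 had 844 and 746 counts in shControl cells, 119 and 91 in shMETTL3 cells and 131 and 102 in shMETTL14 cells. PTGS2, the inducible cyclooxygenase, had 1434 and 1470, 288 and 317, and 208 and 180 counts in the same order. CSF2, which encodes the granulocyte-macrophage colony-stimulating factor, had 0 and 0 counts in control and then 73 and 78, 9 and 16, and 6 and 8. For these genes both knockdown groups were called lower than shControl. CSF3, which encodes the granulocyte colony-stimulating factor, had 0 and 0 counts in control, 289 and 254 in shControl cells, 36 and 17 in shMETTL3 cells and 374 and 296 in shMETTL14 cells. TNFAIP3, the NF-kappaB inhibitor A20, had 126 and 132 counts in shControl cells, 124 and 200 in shMETTL3 cells and 964 and 741 in shMETTL14 cells, a rise of 2.56 (SE 0.17, edgeR adjusted p = 2.1e-11). CCL20 had 104 and 99, 30 and 37, and 243 and 176 counts in these groups. CSF3 and CCL20 were called lower with shMETTL3, and TNFAIP3 and CCL20 were called higher with shMETTL14. The other genes called higher with shMETTL14 were NFKBIA, NFKBIZ, BIRC3, ICAM1 and TNFAIP6, and NFKBIA, NFKBIZ and BIRC3 are known as feedback or survival genes of NF-kappaB. NFKBIA, NFKBIZ, BIRC3 and ICAM1 were named after their values were seen. TNFAIP6, whose protein binds hyaluronan, had 18 and 10 counts in shControl cells, 11 and 3 in shMETTL3 cells and 59 and 44 in shMETTL14 cells, and between the knockdown groups it differed by 2.91 (SE 0.53), CSF3 by 3.70 (SE 0.27), CCL20 by 2.69 (SE 0.23) and TNFAIP3 by 2.45 (SE 0.17), all higher with shMETTL14.

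**Figure D4:**
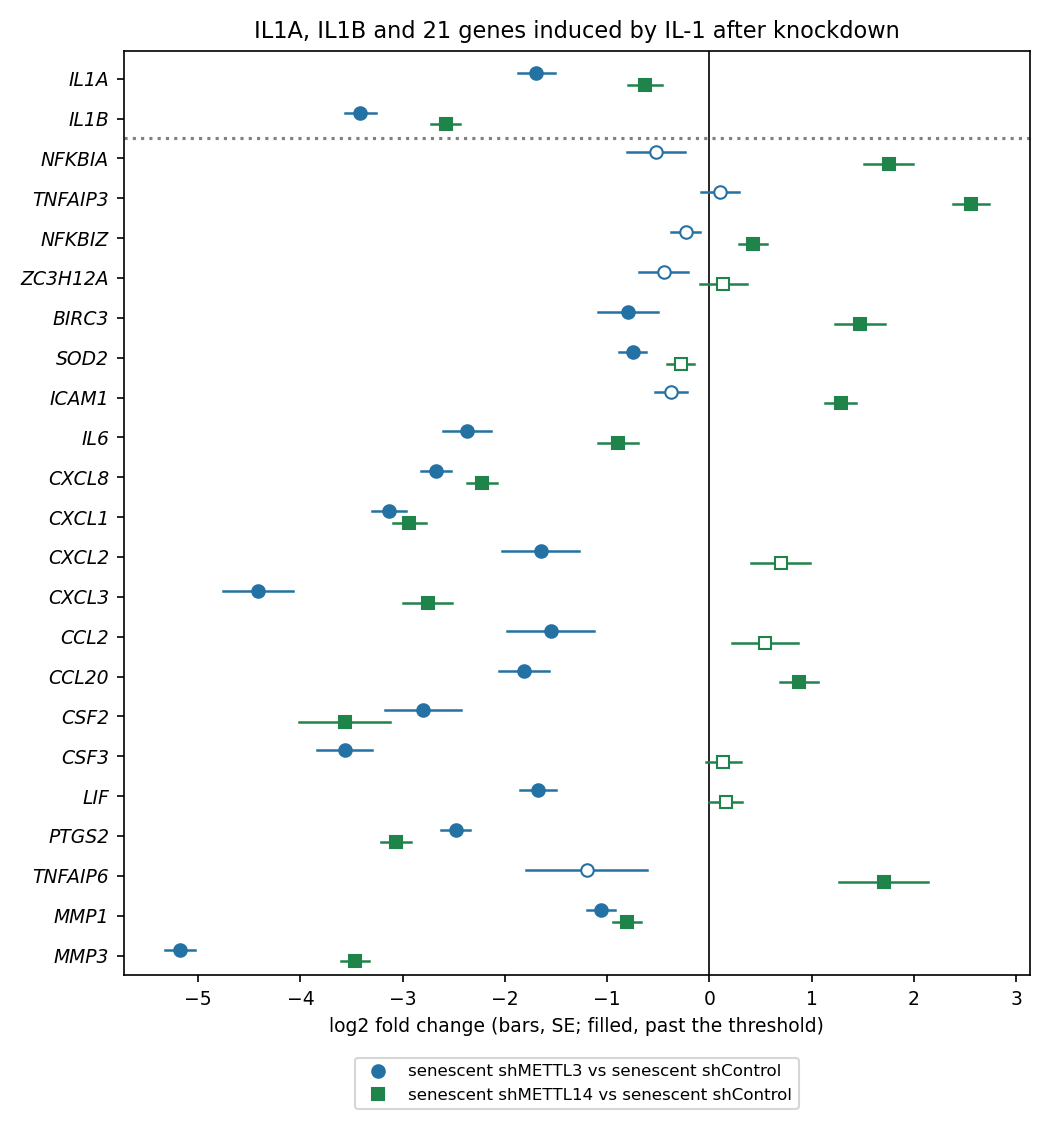
Log2 fold change with its SE of IL1A, IL1B and the 21 genes induced by IL-1 after knockdown of METTL3 (circles) or METTL14 (squares), each against the same shControl libraries, with filled symbols past the threshold. The shMETTL3 values of called genes all lie below 0, and the shMETTL14 values of called genes fall on both sides, from CSF2 at -3.57 to TNFAIP3 at 2.56.

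Of 17 genes for the proteins between receptor and NF-kappaB, 16 were tested. In senescence 3 were higher and 2 lower, with shMETTL3 1 and 1, and with shMETTL14 2 and 1, where all genes tested had shares of 13.3% higher and 13.3% lower, 12.2% and 11.2%, and 9.15% and 12%. Library size alone turned these counts to 1 higher and 8 lower, 8 and 0, and 5 and 1, and DESeq2 gave 2 and 0, 0 and 0, and 1 and 1. PELI1, a ubiquitin ligase that acts on IRAK kinases, had 17 and 22 counts in control and 48 and 39 with shControl, a rise of 1.54 (SE 0.33, edgeR adjusted p = 0.00057). IKBKG, the regulatory subunit of IKK, fell by 1.27 in senescence (SE 0.40) and by a further 1.56 with shMETTL3 (SE 0.58, edgeR adjusted p = 0.041), on 52 and 62, 17 and 19, and 13 and 1 counts. TOLLIP, an inhibitor that binds IRAK1, went from 44 and 44 counts in shControl cells to 118 and 102 in shMETTL14 cells, a rise of 1.16 (SE 0.22, edgeR adjusted p = 0.00028). PELI2, of the same family as PELI1, had 216 and 210 counts in control, 80 and 120 in shControl cells, 142 and 177 in shMETTL3 cells and 38 and 64 in shMETTL14 cells. It fell by 0.71 in senescence (SE 0.20, edgeR adjusted p = 0.0073) and by a further 1.12 with shMETTL14 (SE 0.24, edgeR adjusted p = 0.00083). The shMETTL14 group of PELI2 lay below all others, and TOLLIP and PELI2 were called in opposite directions there. UBE2V1 and UBE2N encode the ubiquitin-conjugating pair that works with TRAF6, and the kinase TAK1 is encoded by MAP3K7. UBE2V1 rose by 0.56 in senescence (SE 0.15), UBE2N by 0.53 with shMETTL14 (SE 0.16) and MAP3K7 by 0.49 in senescence (SE 0.15) and 0.46 with shMETTL3 (SE 0.14). The adaptor MYD88 and the kinase IRAK4 were not called in senescence or in either knockdown against shControl. Against control, shMETTL3 cells were lower for both, with differences of -1.36 for MYD88 (SE 0.41) and -1.48 for IRAK4 (SE 0.44), on 16 and 8 counts of MYD88 and 16 and 9 of IRAK4.

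Of 11 genes for cytokine processing and release, 7 were tested, with 1 higher and 2 lower in senescence, 0 and 2 with shMETTL3, and 0 and 0 with shMETTL14, where the shares of all genes were 13.3% and 13.3%, 12.2% and 11.2%, and 9.15% and 12%. At an unadjusted p below 0.05 the zeros became 0 higher with shMETTL3 and 0 higher and 2 lower with shMETTL14, and DESeq2 called 0 genes of the list in each of these 3 comparisons. With library size alone the counts were 0 higher and 4 lower, 1 and 0, and 2 and 0. CASP1, the protease that cuts the IL-1β precursor, had 37 and 21 counts in control and 6 and 4 with shControl, and the pore-forming substrate GSDMD had 23 and 26 against 5 and 9. These are the 2 genes counted as lower in senescence, and both passed the filter only through their control counts, so their calls are no support. CASP4 rose by 0.73 in senescence (SE 0.20) and fell by 0.75 with shMETTL3 (SE 0.20). The calpain gene CAPN1 had 144 and 166 counts in shControl cells, 122 and 143 in shMETTL3 cells and 227 and 194 in shMETTL14 cells, a fall of 0.44 with shMETTL3 (SE 0.16, edgeR adjusted p = 0.043), and it was higher with shMETTL14 than with shMETTL3 by 0.72 (SE 0.15). Only against control were CAPN2, another calpain gene (0.47, SE 0.13), and the sensor NLRP1 (-0.73, SE 0.28) called with shMETTL14. CASP1 and GSDMD were named after their values were seen. The inflammasome sensor NLRP3 and the adaptor PYCARD stayed below the filter, at 0 to 4 and 1 to 11 counts.

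The other ligands of the family were close to silent. Of 7, only IL36B was tested, and it had 0 and 0 counts in control, 1 and 1 in shControl cells, 1 and 0 in shMETTL3 cells and 25 and 17 in shMETTL14 cells. It passed the filter only through its shMETTL14 counts, so its call above shControl there is no support, and DESeq2 did not make that call. IL36B was named after its values were seen. Of the 7 other receptors 3 were tested, IL1RL2, IL18R1 and IL1RAPL1, and 13.3% of all genes were called higher in senescence. IL1RL2 had 6 and 3 counts in control and 28 and 16 in shControl cells, and IL18R1 had 4 and 2 against 15 and 17. Both passed the filter only through senescent libraries, so their calls above control are no support. IL1RAPL1, a large gene best known for its part at neuronal synapses, had 531 and 582 counts in control, 1400 and 1345 in shControl cells, 4003 and 5221 in shMETTL3 cells and 2447 and 2663 in shMETTL14 cells. It rose by 1.69 in senescence (SE 0.14), by a further 1.52 with shMETTL3 (SE 0.14, edgeR adjusted p = 1.2e-08) and by 0.74 with shMETTL14 (SE 0.14, edgeR adjusted p = 0.00035). IL1R2, the decoy receptor, had at most 1 count per library.

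The stretch from IL1A to IL1RN with 500 kb on each side holds 34 rows of the table, of which 13 were tested. In senescence 4 were higher and 3 lower, with shMETTL3 0 (0 at an unadjusted p below 0.05 and 0 by DESeq2) and 6, and with shMETTL14 5 and 4, where the shares of all genes were 13.3% higher and 13.3% lower, 12.2% and 11.2%, and 9.15% and 12%. IL36B is 1 of the 5 and entered the fit only through shMETTL14, and CKAP2L is 1 of the 3 and entered only through control, on 21 and 30 counts there and 2 and 8 in shControl cells, so neither call is support. IL1A and IL1B, which define the stretch, are counted among the 4 higher in senescence and among the rows lower with each shRNA. They too entered the fit only through senescent libraries, so their calls above control are no support. PAX8 and PAX8-AS1 are both counted among the 3, the 6 and the 5. No pattern of the stretch is therefore read from these counts. SLC20A1, a phosphate transporter whose start lies at -191 kb from that of IL1B in chromosome coordinates, had 306 and 332 counts in control, 2067 and 1939 in shControl cells, 1409 and 1637 in shMETTL3 cells and 875 and 956 in shMETTL14 cells. It rose by 3.04 and fell by 0.62 with shMETTL3 and 1.29 with shMETTL14. TTL, which adds tyrosine to tubulin, rose by 0.63 in senescence. PAX8, a transcription factor, and PAX8-AS1, which overlaps it so that their reads cannot be told apart, fell in senescence and with shMETTL3, by 0.79 and 0.81 for PAX8 and 0.86 and 1.09 for PAX8-AS1. With shMETTL14 they rose by 1.05 and 1.12. ZC3H6 fell with both shRNAs, by 1.16 and 1.06, and POLR1B rose by 0.82 with shMETTL14. CBWD2 was also called higher with shMETTL14. CKAP2L, IL36B and CBWD2 were named after their values were seen. In the second cluster on chromosome 2, from IL1R2 to IL18RAP, 4 of 7 rows were tested, namely IL1R1, IL1RL2, IL1RL1 and IL18R1. All but IL1R1 had at most 6 counts in control and passed the filter only through senescent libraries, so no pattern is read from their calls.

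**Figure D5:**
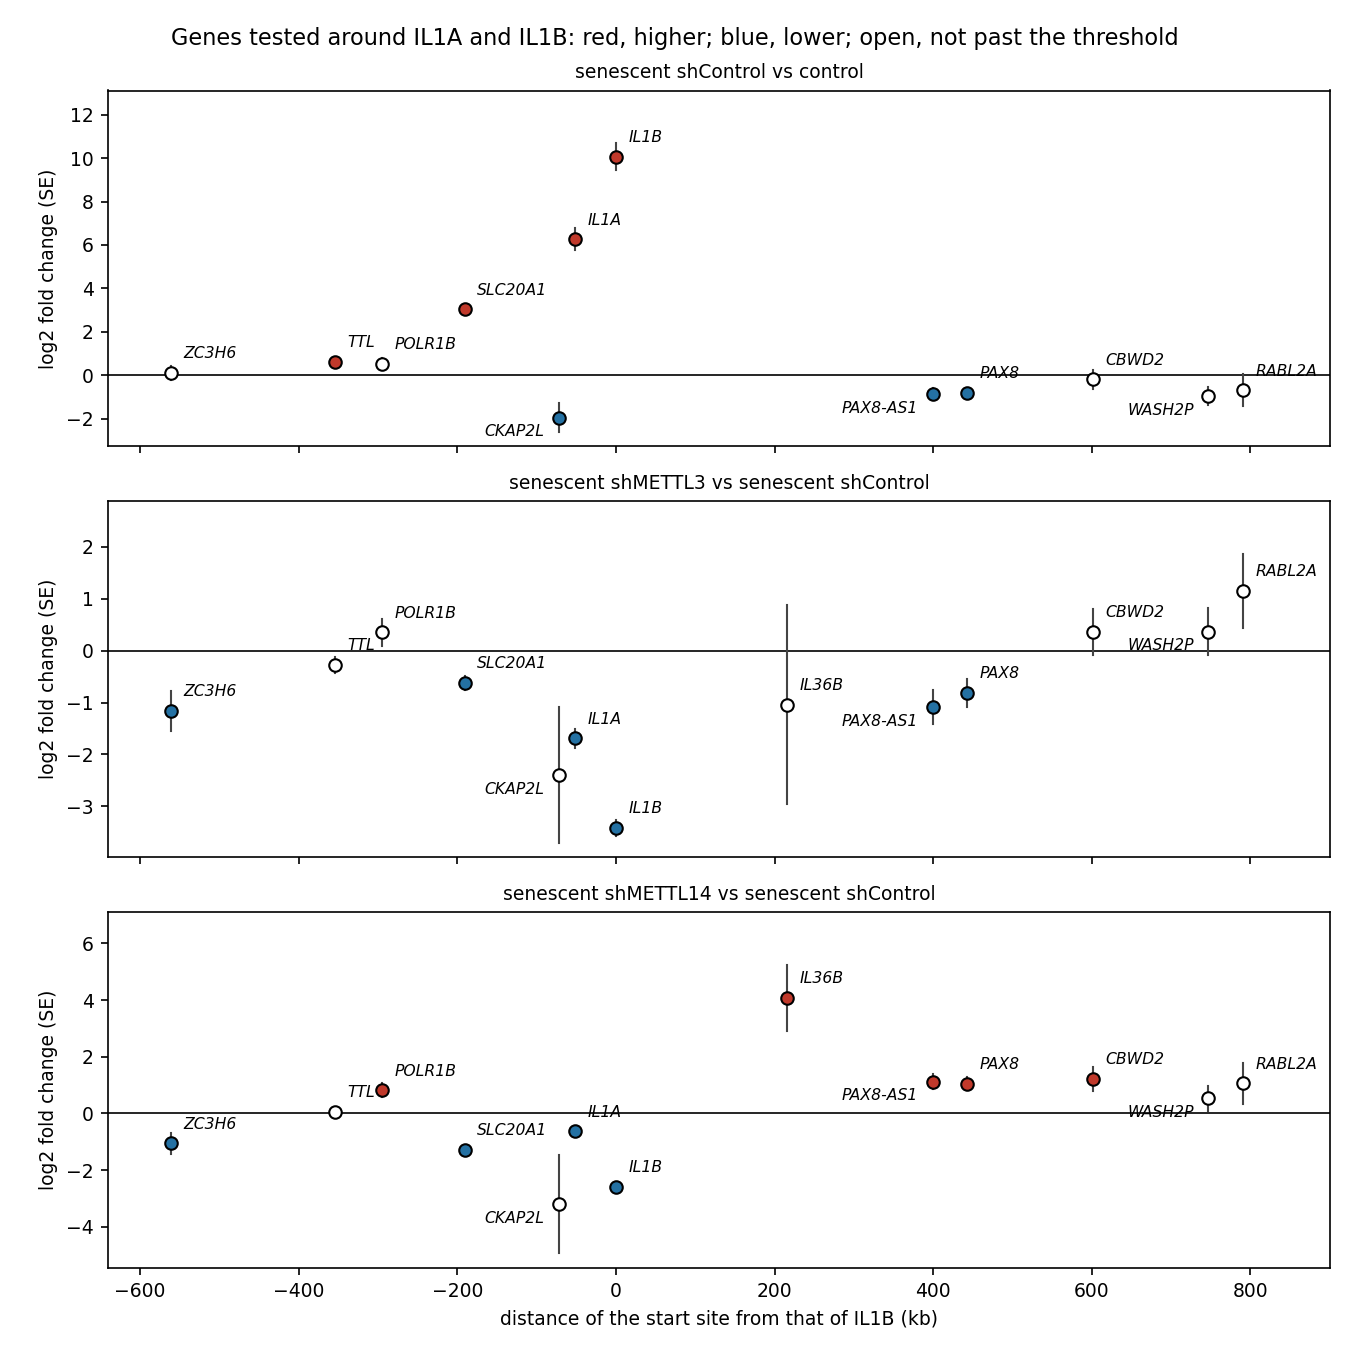
Log2 fold change with its SE of the genes tested around IL1A and IL1B, against the distance in kb of each start site from that of IL1B, in 3 comparisons. In senescence IL1B, IL1A and SLC20A1 stand above all others shown. IL36B has no value against control, where it has 0 counts, and CKAP2L and IL36B rest on few counts.

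Across the 8 libraries, genes averaging 100 counts or more were ranked by the Pearson correlation of their log2 normalized counts with those of IL1A and IL1B, as a description only, since the libraries fall into 4 groups. Among 3883 genes, those most like IL1A were TNFRSF10D (r = 0.995), MCL1 (r = 0.992), EREG (r = 0.991), MTHFD2L and GFPT1 (both r = 0.985). Those most like IL1B were CXCL8 (r = 0.997), TNC (r = 0.992), MMP3 (r = 0.991), EPB41L3 (r = 0.989) and NRIP3 (r = 0.988). IL1A and IL1B themselves had r = 0.981. EREG, an epidermal growth factor family ligand, had 71 and 90 counts in control, 977 and 895 in shControl cells, 530 and 712 in shMETTL3 cells and 1214 and 982 in shMETTL14 cells, so its shMETTL14 libraries lay as high as shControl by raw count. CXCL8, the neutrophil chemokine IL-8, had 38 and 41, 4396 and 4004, 632 and 905, and 1104 and 911 counts, with both knockdown groups far below shControl as for IL1B.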

How the data were processed

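Nascent RNA from 4 groups of IMR90 cells was sequenced, 2 libraries per group. Per the labels, the authors used a directional library kit, STAR and deepTools 3.3 with hg19. The deposited table holds raw read counts that the authors took with HOMER from the start to the end of each gene, so introns are included, and nothing was normalized. The file header names a strand option, but of 313 genes of 100 counts or more nested in an antisense gene, 312 never exceeded their host in any library, so strands were treated as not separated. Of the members, IRAK3 alone overlaps another row, MIR6502. No row lacked a gene name.

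Counts were scaled by TMM, filtered by filterByExpr (minimum count 10) and tested in edgeR 4.0.16 (R 4.3.3) with glmQLFit and glmQLFTest, group means only, all 8 libraries in 1 fit. Benjamini-Hochberg adjustment ran over 12844 genes, with a threshold of 0.05. The SE of a fold change is a Wald estimate, and 95% intervals use the t distribution. Ratios from few counts have exact 95% intervals, and a group at 0 was set to a floor of 3 counts over the group. Depth was 1513930 to 2048475 counts per library outside ribosomal RNA rows. The variance between replicates was 1.72, 1.53, 5.13 and 2.52 times the sampling noise in control, shControl, shMETTL3 and shMETTL14. The labels do not say whether replicates are separate cultures, and the study calls its fastGRO-seq experiments biologically independent. The spike-in was not used here, and a shift common to every gene is invisible to TMM. In simulated data, with a log2 change of 1 given to 200 genes, the comparison of shControl with control recovered 147 of them and called 11 unchanged genes among 12291 tested.

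The members and lists were chosen with earlier results of these data known. The genes named are the members, METTL3 and METTL14, in each list and comparison up to 4 called genes with the largest change and a mean of at least 20 counts, called neighbours with a mean of at least 20 counts, and the 5 genes most like IL1A or IL1B, with exceptions said in the text. Alternatives were DESeq2 1.42.0, other scalings and filters, fits of only the groups compared, a replicate block, stricter thresholds and each library left out. For the list of genes induced by IL-1, leaving out libraries was added after seeing the data. Plots were drawn with matplotlib 3.10.9. HiChIP and KAS-seq were not analysed here.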

Additional observations from a re-analysis of the deposited data

Results flagged for a closer look

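The effect of METTL3 knockdown and that of METTL14 knockdown, each against the same shControl libraries, differed by the test of the difference itself for 6 of the 8 members tested, or 5 of 7 without IL1RL1, which entered the fit only through its shMETTL14 counts. The change with shMETTL14 minus that with shMETTL3, on the log2 scale, was 1.42 for IRAK1, 1.06 for IL1A, 0.83 for IL1B, 1.71 for IL1RL1, -1.10 for IRAK3 and -0.82 for IL1RAP, at edgeR adjusted p-values of 1.3e-05, 5.3e-05, 0.00016, 0.033, 0.0062 and 0.010. In this comparison 35.2% of all genes were called. The value of IL1RL1 is a description, and with the replicate number as a block it did not pass (adjusted p = 0.052). IL1A and IL1B were lower than shControl in both knockdown groups, and less so with shMETTL14. The cause was not tested. METTL14 itself was not called lower in shMETTL14 than in shControl cells (edgeR adjusted p = 0.076). It was called lower there than in control (-1.62, SE 0.32, edgeR adjusted p = 0.00012) and than in shMETTL3 cells (-1.41, SE 0.33, edgeR adjusted p = 0.0010). Nascent counts check a knockdown only in part, and the part of METTL14 levels in these differences was not tested.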

How the results depend on the processing

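Among the fold changes of the 8 members tested, over the 6 comparisons and the alternative fits, 539 kept their direction and side of the threshold, 37 lost the threshold, 9 gained it and 15 changed sign, none of them a call reported above. Stricter thresholds, IL33 and IL1RN are not in these counts. The cause of these changes was not tested, except where an alternative by its construction drops genes or samples. With at least 10 counts in every library, which drops IL1A, IL1B and IL1RL1, the members called were 2 for shControl against control, 3 for shMETTL3 and 2 for shMETTL14 against shControl, 5 and 3 for these against control, and 3 between the knockdowns. Requiring a 1-unit log2 change as well left 2 for shMETTL14 against shControl and 4 for it against control. Leaving out 1 library gave 3 to 6 between the knockdowns, with 3 without shMETTL14 replicate 1.

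Signs turned with library size alone for IRAK1 (-0.046) and IL1RAP (-0.016) in shControl against control, IRAK3 (0.21) and IL1RL1 (0.26) in shMETTL3 against shControl, IRAK3 (-0.037) in shMETTL14 against control and IRAK2 (-0.15) between the knockdowns. Library size without ribosomal RNA rows gave -0.063 for IRAK2 with shMETTL3. Leaving out 1 library gave -0.20 to 0.044 for IL1R1 in senescence, -0.17 to 0.20 for IRAK2 and -1.03 to 0.53 for IL1RL1 in shMETTL3 against shControl, -0.095 to 0.48 for IL1RAP in shMETTL14 against shControl, -0.28 to 0.46 for IRAK3 in shMETTL14 against control, and -0.053 to 0.32 for IRAK2 between the knockdowns. The signs turned without control replicate 2 (IL1R1), without replicate 1 of shControl or of shMETTL3 (IRAK2 and IL1RL1 with shMETTL3), without shMETTL14 replicate 2 (IL1RAP and IRAK3) and without shMETTL3 replicate 2 (IRAK2 between the knockdowns).

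Same-numbered libraries correlated by -0.039 to 0.101 in their deviations, so they share only a number. With the replicate number as a block the members called were 5, 5, 4, 8, 7 and 5, and the pairing moved 1 call, IL1RL1 between the knockdowns (1.68, adjusted p = 0.052).

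With library size alone the median of all genes was -0.53 in senescence, 0.58 with shMETTL3 and 0.35 with shMETTL14, against -0.034, -0.034 and -6.4e-05 as reported. Over all genes, DESeq2 called 1940, 1555 and 1367 genes in these comparisons against 3413, 3007 and 2720, 3228 and 3264 against 5162 and 5167 for the knockdowns against control, and 2656 against 4517 between them. Library size alone called 5759 and 5638 in the first pair, with 752 higher and 5007 lower, and 5285 higher and 353 lower, and 3163 higher and 710 lower with shMETTL14. Leaving out 1 library gave 1829 to 2422, 1492 to 3989, 1270 to 2036, 3763 to 5978, 3544 to 4190 and 2404 to 5410. A lone library in a group is then assumed to vary like the others. Depth limits IL33, IL1RN and IL1RL1, which have at most 19 counts in any library.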
